A study of Homo sapiens with 12 samples.

Results

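The collagen genes are the protein-coding autosomal genes whose symbol reads COL, a number, A and a number. The hg19 gene annotation held 42 of them among 18893 autosomal protein-coding genes. Their products fall into 11 fibrillar chains, 7 chains of the basement membrane and its anchoring fibrils, 4 transmembrane chains, 10 fibril-associated chains and 10 chains of the type VI related and network collagens. Binding was measured by ChIP-exo, in which an exonuclease trims the immunoprecipitated DNA up to the crosslinked protein, in DCIS.COM, a basal-like human breast cancer cell line that models ductal carcinoma in situ. BCL9-KD cells carried a lentiviral shRNA of a single sequence against BCL9, and control cells carried the non-silencing vector (labelled NS, or non-scrambled control). All libraries came from this 1 line, grown in medium with horse serum. Chromatin was pulled down with an antibody to STAT3 phosphorylated at S727 (pSTAT3; 2 BCL9-KD and 3 control libraries), with an antibody to BCL9 (2 BCL9-KD and 3 control libraries), or with an antibody to CTCF (1 control library, the study's positive control, with no replicate). An IgG library was named as the negative control, and it was not analysed here, so no background was subtracted from the values that follow.

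Collagens are triple helices of 3 chains that are wound in the endoplasmic reticulum, trimmed outside the cell and crosslinked into fibrils, networks or anchors. In the breast the fibrillar types I and III are made mostly by stromal fibroblasts, whereas epithelial cells contribute to the sheet of type IV collagen and laminin beneath them, hold on to it through the transmembrane type XVII of hemidesmosomes, and tie it to the stroma with the anchoring fibrils of type VII. STAT3 is a transcription factor that is activated by phosphorylation, and BCL9 is a nuclear cofactor best known for linking beta-catenin to the transcription machinery. Each library came as a list of peak pairs. A peak pair is a pair of exonuclease borders on opposite strands, and it marks 1 bound position. Its signal can be read as a number of sequence tags, which were not scaled between libraries.

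The lists differed widely in length. They held 415624 and 493174 peak pairs in the BCL9-KD pSTAT3 libraries, against 118933, 98665 and 374089 in those of control cells. With the BCL9 antibody there were 95586 and 336493 peak pairs in BCL9-KD cells, against 28690, 24728 and 148755 in control cells, and the CTCF list held 457119. The lengths of the BCL9 lists overlapped between knockdown and control cells, and the lists do not measure the level of BCL9 itself. Counts near transcription start sites (TSSs) follow list length, so each was also taken from the strongest 24728 pairs of every list, called equal length here, and gene body counts were expressed per 100 kb and per 100000 listed pairs, called density here.

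Binding by pSTAT3 in control cells was placed by joining overlapping 100 bp windows round the peak pairs into regions that at least 2 of the 3 control libraries supported. There were 87 such regions in the collagen genes or within 5 kb of their TSSs, and 15 of them also held BCL9 in at least 2 of its 3 control libraries. These shared regions lay at COL4A2 (4), COL8A1 (3), COL16A1 (2), COL14A1 (2), COL7A1 (2), COL12A1 (1) and COL23A1 (1). The sequences below are windows of 100 bases round the strongest point of the regions on which the account of the single genes rests, and a 30-base stretch for the region that overlaps an untranslated exon. They are read on the forward strand of GRCh37, and capitals mark a match to the AP-1 string (TGANTCA) or, in the short stretch, to the STAT3 string (TTCCNGGAA).
COL4A2 intron, chr13:111000146-111000245: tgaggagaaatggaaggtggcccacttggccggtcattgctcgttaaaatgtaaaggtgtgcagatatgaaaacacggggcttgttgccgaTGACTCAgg
COL4A2 untranslated exon, chr13:111100672-111100701: accgtactataTTCCTGGAAttcacactgc
COL8A1 upstream, chr3:99356286-99356385: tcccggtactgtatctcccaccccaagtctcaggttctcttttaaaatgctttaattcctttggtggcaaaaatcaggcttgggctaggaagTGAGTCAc
COL8A1 intron, chr3:99397050-99397149: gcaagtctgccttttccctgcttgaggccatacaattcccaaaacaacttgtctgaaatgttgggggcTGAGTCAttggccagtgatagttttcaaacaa
COL7A1 upstream, chr3:48635848-48635947: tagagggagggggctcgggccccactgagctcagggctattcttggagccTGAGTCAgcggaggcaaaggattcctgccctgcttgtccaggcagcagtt
COL12A1 intron, chr6:75905837-75905936: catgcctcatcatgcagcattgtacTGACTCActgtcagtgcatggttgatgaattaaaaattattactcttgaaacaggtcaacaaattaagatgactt
COL16A1 intron, chr1:32166834-32166933: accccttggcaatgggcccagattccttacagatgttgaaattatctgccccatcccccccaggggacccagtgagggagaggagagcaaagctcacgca

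Both strands of the 100 bp window were searched for each string. The AP-1 string was found in 31 of the 87 collagen regions, or 35.6%, against 31.5% of the 36480 such regions on all autosomes. The STAT3 string was found in 2 of the 87 (2.30%), against 0.636% of all regions; the 2 lay in COL4A2, shown above, and in an intron of COL22A1. The TEAD string (GGAATG) was found in 7 (8.05%), against 10.9% of all regions, and a core string of the CTCF motif in 0, against 0.669%. Among the 15 shared regions the AP-1 string was in 5, or 33.3%, against 28.8% of the 8628 shared regions genome-wide. A match is a description of the letters in the window and marks no factor as bound.

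Peak pairs near the TSS were found at most collagen genes with pSTAT3 and at fewer with BCL9. With a gene counted when at least 2 libraries had a pair within 5 kb of any of its TSSs, pSTAT3 was found at 30 of 42 collagen genes in BCL9-KD cells (71.4%; 71.8% of all genes) and at 23 in control cells (54.8%; 52.5% of all genes). BCL9 was found at 13 in BCL9-KD cells (31.0%; 41.7% of all genes) and at 7 in control cells (16.7%; 20.6% of all genes). CTCF, in its single library, was found at 37 (88.1%; 80.4% of all genes). No test was run on these shares. By library, the collagen genes with such a pair numbered 34 and 34 in the BCL9-KD pSTAT3 libraries, 17, 18 and 29 in the control pSTAT3 libraries, 14 and 33 in the BCL9-KD BCL9 libraries and 7, 5 and 21 in the control BCL9 libraries, numbers that broadly follow list length. Without the third control library, which has the longest control list of each antibody, the counts were 12 for pSTAT3 and 3 for BCL9 in control cells, and without the first BCL9-KD BCL9 library the count was 33. In single BCL9 libraries the collagen share lay above or below that of all genes: 33.3% and 78.6% in BCL9-KD cells, where all genes had 44.8% and 77.9%, and 16.7%, 11.9% and 50.0% in control cells, where all genes had 17.3%, 14.3% and 55.3%. Within 1 kb of a TSS the collagen share lay under that of all genes in these groups: 12 collagen genes (28.6%, against 45.2% of all genes) in the BCL9-KD pSTAT3 libraries, 8 (19.0%, against 29.4%) in the control pSTAT3 libraries and 3 (7.14%, against 23.4%) in the BCL9-KD BCL9 libraries. The shares were 9.52% and 10.6% in the control BCL9 libraries. At equal length few collagen genes were left: COL1A1 and COL7A1 in the BCL9-KD pSTAT3 libraries, and COL16A1, COL1A1, COL7A1 and COL8A1 in the control pSTAT3 libraries. COL16A1, COL7A1 and COL8A1 were left in the BCL9 libraries of both conditions.

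**Figure D1:**
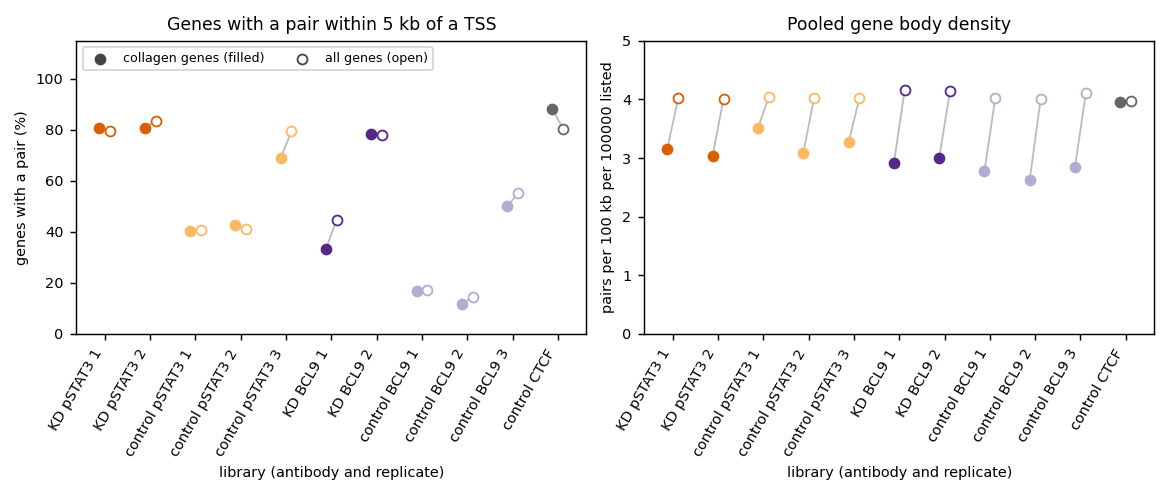
Share of genes with a peak pair within 5 kb of a TSS (left, percent) and pooled gene body density (right, peak pairs per 100 kb per 100000 listed) in each of the 11 libraries. Filled points are the 42 collagen genes and open points all 18893 autosomal protein-coding genes; in the right panel the collagen genes sit below all genes in the 10 pSTAT3 and BCL9 libraries and level with them in CTCF (3.95 against 3.97).

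The classes differed in how many members had a pair near the TSS, and several counts lay near the share of all genes. That share was 71.8% with pSTAT3 in BCL9-KD cells and 52.5% in control cells, 41.7% and 20.6% with BCL9, and 80.4% with CTCF. Among the fibrillar genes, pSTAT3 was found at 4 of 11 in BCL9-KD cells (36.4%) and 3 of 11 in control cells (27.3%). BCL9 was found at 1 in each condition (9.09%), whereas CTCF was found at 9 (81.8%). Of the 7 basement membrane and anchoring genes, pSTAT3 was found at 6 in BCL9-KD (85.7%) and 5 in control cells (71.4%), and BCL9 at 2 (28.6%) and 3 (42.9%). The fibril-associated genes had pSTAT3 at 9 of 10 in both conditions and BCL9 at 4 in BCL9-KD and 2 in control cells. The transmembrane genes had pSTAT3 at 4 of 4 in BCL9-KD and 3 in control cells, and BCL9 at 1 and 0. The type VI related and network genes had pSTAT3 at 7 of 10 in BCL9-KD and 3 in control cells, and BCL9 at 5 and 1. These are counts of few genes, some of which share a promoter: the TSSs of COL4A1 and COL4A2 lie 101 bp apart and those of COL4A3 and COL4A4 171 bp apart, so that a pair near both is counted for both.

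**Figure D2:**
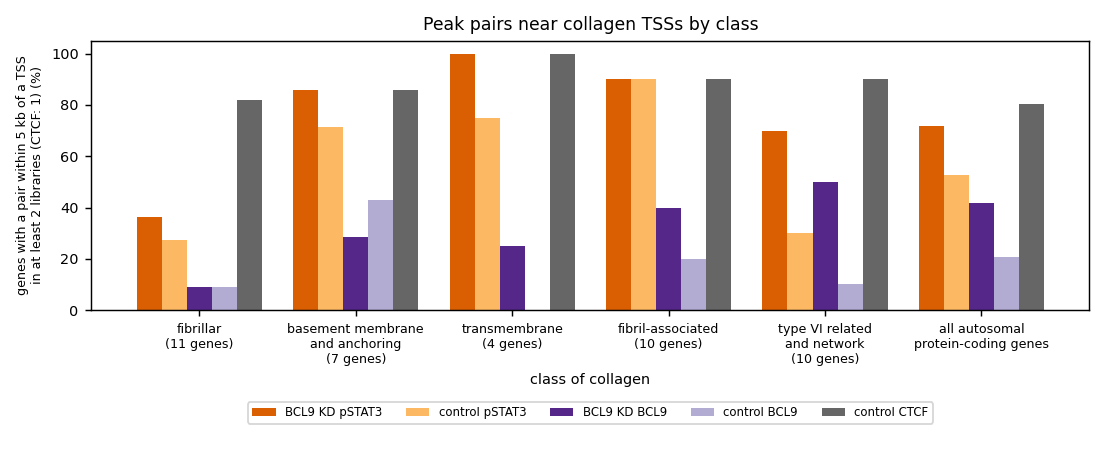
Percent of the genes of each collagen class, and of all autosomal protein-coding genes, with a peak pair within 5 kb of a TSS in at least 2 libraries of a group (1 for CTCF). Bars start at 0 and stand for groups of libraries, BCL9 KD left of control for each antibody; by percent the fibrillar class is lowest for pSTAT3, with 4 of 11 genes in BCL9-KD and 3 of 11 in control libraries.

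Inside the gene bodies, pooled over their length, the collagen genes carried fewer peak pairs than all genes for pSTAT3 and BCL9, and about as many for CTCF. Pooled over the 42 bodies, the pSTAT3 density was 3.16 and 3.04 in BCL9-KD cells, where all genes had 4.03 and 4.01, and 3.51, 3.08 and 3.26 in control cells, where all genes had 4.04, 4.03 and 4.02. The BCL9 density was 2.91 and 3.00 in BCL9-KD cells (all genes 4.16 and 4.15) and 2.78, 2.63 and 2.85 in control cells (all genes 4.03, 4.00 and 4.11). The ratio of collagen genes to all genes was below 1 in each of these 10 libraries, between 0.657 and 0.870, and it was 0.995 for CTCF. At equal length it lay between 0.400 and 0.845 in the 10 libraries and at 1.58 for CTCF. The median over single genes, which is 0 where most genes have no pair, did not follow the pool in 5 of the 10 libraries. In the first and second control BCL9 libraries it was 0 for both sets of genes. It was higher for collagen genes in the first and second control pSTAT3 libraries (1.73 and 2.04, against 0 and 1.21 for all genes) and in the first BCL9-KD BCL9 library (1.75, against 0.789). The pool rested in part on COL4A2 and COL8A1. With both, the ratio in the control BCL9 libraries was 0.690, 0.657 and 0.694. It was 0.554, 0.578 and 0.580 without COL4A2, and 0.564, 0.489 and 0.633 without COL8A1. Collagen genes are long, with a median body of 133 kb against 27.4 kb for all genes. Of the 42, 24 held at least 1 control pSTAT3 region in the body (57.1%, against 34.8% of all genes), while the number of regions per 100 kb was 1.25 against 1.52. The part of gene length in this share was not tested. A shared region lay in the body of 6 (14.3%; 11.9% of all genes). Near the TSS, 14 had a pSTAT3 region (33.3%; 27.4% of all genes) and 3, namely COL16A1, COL7A1 and COL8A1, a shared region (7.14%; 6.11% of all genes). Of the 87 regions, 69 lay in introns, 4 in coding exons, 4 in untranslated exons and 10 outside the collagen genes.

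By class, the median gene body density of the fibrillar genes was the lowest of the 5 with pSTAT3, at 1.46 in BCL9-KD and 1.18 in control libraries, where the medians of all genes were 3.02 and 2.33. The basement membrane and anchoring genes had medians of 2.75 and 3.44, the transmembrane genes 2.92 and 2.42, the fibril-associated genes 3.70 and 3.42, and the type VI related and network genes 2.11 and 2.08. With the BCL9 antibody the fibrillar median was 0.817 in BCL9-KD and 0.440 in control libraries, where all genes had 2.64 and 1.03.

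**Figure D3:**
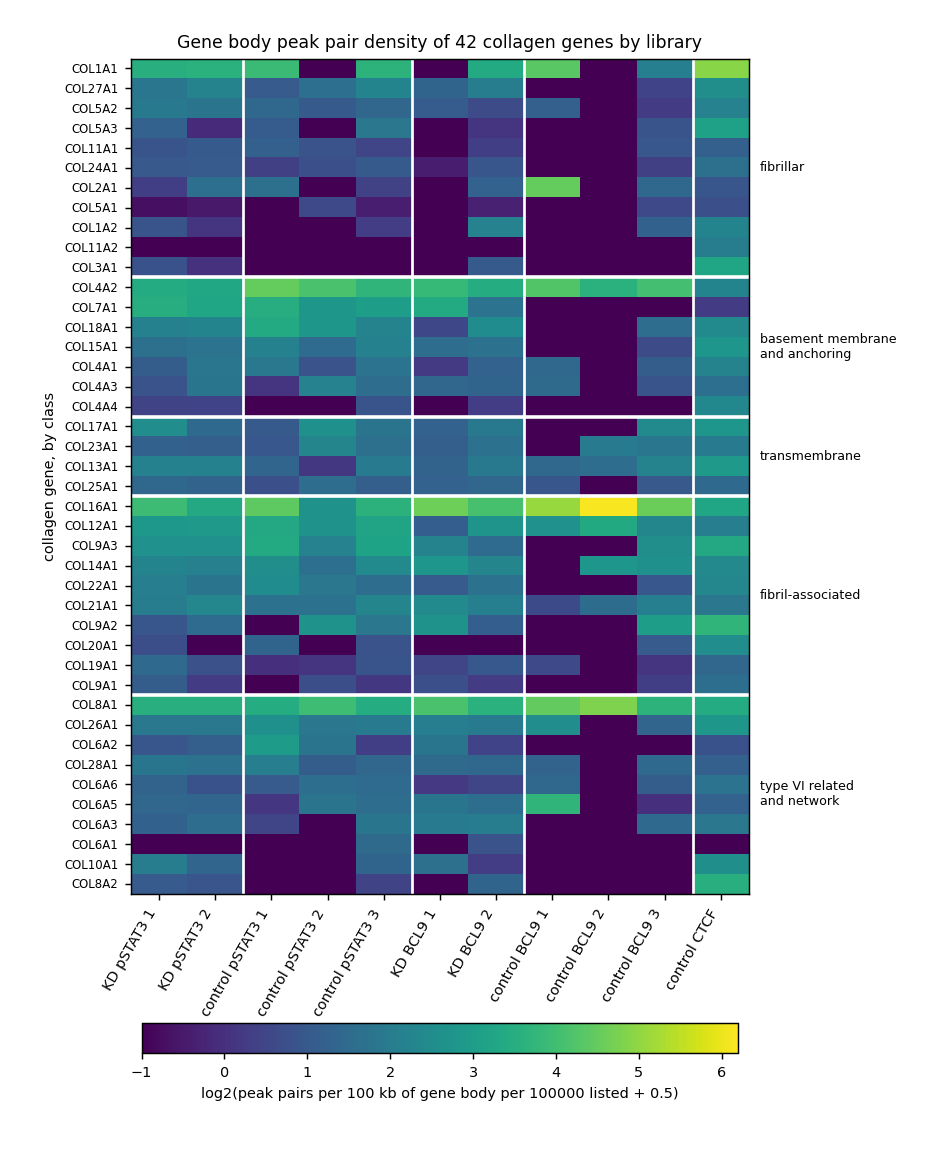
Gene body density of each of the 42 collagen genes (rows, by class) in each of the 11 libraries (columns), as log2(peak pairs per 100 kb of body per 100000 listed + 0.5). A value of -1 is a gene with no pair in its body; COL4A2, COL8A1 and COL16A1 are the rows that are bright in all 10 pSTAT3 and BCL9 libraries.

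COL4A2 encodes the alpha 2 chain of type IV collagen, which forms the network of the basement membrane with the alpha 1 chain. It was the collagen gene with the highest mean body density with pSTAT3 in control cells, and 5.70% of all genes were denser. Its body of 207 kb held 89 and 97 pSTAT3 pairs in BCL9-KD cells, against 54, 35 and 98 in control cells. BCL9 gave 27 and 73 pairs in BCL9-KD cells, against 11, 6 and 50 in control cells. Pairs were thus found inside this gene in each of the 10 libraries, and 14 control pSTAT3 regions lay in it, the most of any collagen gene by number. Per 100 kb it had 6.75 such regions, fewer than COL16A1 (13.4) and COL1A1 (11.4). CTCF had 40 pairs in COL4A2 and a density of 4.22, near the 3.97 of all genes pooled. The region 141.077 kb downstream of the canonical TSS (chr13:111100435-111100932), which holds the STAT3 string printed above, was in all 6 pSTAT3 and BCL9 control libraries and all 4 BCL9-KD ones. The annotation puts it in an untranslated exon of 1 transcript and in an intron of the canonical one, and it overlapped a CTCF pair of 5 tags. Its strongest pSTAT3 pair had 26 and 24 tags in BCL9-KD cells, against 12, 14 and 40 in control cells, and its strongest BCL9 pair had 8 and 16 tags in BCL9-KD cells, against 13, 23 and 56 in control cells. In the third control BCL9 library this pair ranked 311, with 0.208% of the list above it, and in the other two 3.72% and 4.32% lay above. The intronic region at 40.565 kb (chr13:110999758-111000457), with its AP-1 string, was in 3 of 3 control pSTAT3 and 2 of 3 control BCL9 libraries and in all 4 BCL9-KD ones. Its strongest pSTAT3 pair had 25 and 16 tags in BCL9-KD cells, against 17, 17 and 33 in control cells.

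COL4A1, the alpha 1 chain of type IV collagen, runs from the same promoter in the opposite direction and carried far fewer pairs. Its body of 158 kb held 11 and 24 pSTAT3 pairs in BCL9-KD cells, against 6, 2 and 17 in control cells, and 1 and 10 BCL9 pairs, against 1, 0 and 4. The shared promoter itself was weakly covered: within 5 kb of the TSSs of COL4A2 lay 8 and 1 pSTAT3 pairs in BCL9-KD cells, against 0, 3 and 6 in control cells, and within 5 kb of those of COL4A1 5 and 4, against 0, 2 and 4.

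COL7A1 encodes the chain of the anchoring fibrils. It had 25 and 28 pSTAT3 pairs within 5 kb of a TSS in BCL9-KD cells, against 8, 4 and 21 in control cells, and 9 and 18 BCL9 pairs in BCL9-KD cells, against 2, 3 and 8 in control cells. CTCF gave 2. Most of these pairs lay upstream of the gene, whose body held 14 and 14 pSTAT3 pairs, against 4, 2 and 9, and 3 and 3 BCL9 pairs, against 0, 0 and 0. The shared region upstream at -3.136 kb from the TSS (chr3:48635791-48636049) carried an AP-1 string and was in all 6 control libraries. Its strongest pSTAT3 pair had 9 and 19 tags in BCL9-KD cells, against 7, 8 and 20 in control cells. CTCF gave a pair of 5 tags there. The second, at -4.026 kb (chr3:48636616-48637011), lay inside the neighbouring gene UQCRC1, a subunit of respiratory complex III, so that it cannot be assigned to COL7A1 by position alone.

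COL18A1, whose chain is cut to release endostatin, is a basement membrane proteoglycan. It carried pSTAT3 pairs in each library and at most 4 BCL9 body pairs in 4 of the 5 BCL9 libraries. Its body held 18 and 23 pSTAT3 pairs in BCL9-KD cells, against 13, 7 and 17 in control cells, and 1 and 19 BCL9 pairs, against 0, 0 and 4. It had 4 pSTAT3 regions in the body and 0 of them were shared. Near its TSSs lay 11 and 7 pSTAT3 pairs, against 4, 2 and 6, and 0 and 9 BCL9 pairs, against 0, 1 and 2. COL18A1 overlaps SLC19A1, a folate carrier, and a pair in the overlap is counted for both.

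COL17A1 encodes the transmembrane collagen of hemidesmosomes, a product of basal epithelial cells. Pairs were few inside it: 12 and 6 with pSTAT3 in BCL9-KD cells, against 1, 3 and 6 in control cells, and 1 and 6 with BCL9, against 0, 0 and 4. No control pSTAT3 region lay in its body or near its TSSs. Its surroundings were densely covered, with 40.2 and 43.7 pSTAT3 pairs per 100 kb in the 500 kb on either side in BCL9-KD cells, where the body had 21.98 and 10.99. In control cells the flanks had 15.1, 9.10 and 34.3, and the body 1.83, 5.50 and 10.99. Near the TSSs it had 6 and 8 pSTAT3 pairs in BCL9-KD cells, against 0, 1 and 11 in control cells, and at least 16.0% of the list ranked above the best pSTAT3 or BCL9 pair there in any library.

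COL8A1, a short-chain network collagen, was covered in each of the 10 libraries. Its body of 161 kb held 73 and 88 pSTAT3 pairs in BCL9-KD cells, against 20, 24 and 63 in control cells, and 26 and 63 BCL9 pairs, against 10, 11 and 29. At equal length it kept 8 and 8 pSTAT3 pairs, against 6, 6 and 11, and 6 and 7 BCL9 pairs, against 10, 11 and 7, so that BCL9-KD and control libraries overlapped. Its intronic region at 39.662 kb (chr3:99396796-99397312), printed above with an AP-1 string, was in all 10 of these libraries. CTCF gave a pair of 6 tags there. The strongest pSTAT3 pair there had 39 and 37 tags in BCL9-KD cells, against 18, 18 and 43 in control cells, and the strongest BCL9 pair 33 and 31 tags, against 10, 35 and 33. Between 0.557% and 8.18% of the list ranked above it. The upstream region at -1.102 kb from the TSS (chr3:99356004-99356456) coincided with a CTCF pair of 58 tags, and pSTAT3 gave 19 and 9 tags there in BCL9-KD cells, against 11, 10 and 10 in control cells. Its near relative COL8A2 was among the 4 collagen genes with the lowest pSTAT3 density. It held 2 and 2 body pairs in BCL9-KD cells, against 0, 0 and 1 in control cells, while CTCF gave 15.

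COL16A1 and COL12A1, fibril-associated collagens, were also among the 6 collagen genes with the highest pSTAT3 density. The body of COL16A1 (52.1 kb) held 32 and 25 pSTAT3 pairs in BCL9-KD cells, against 13, 3 and 23 in control cells, and 12 and 29 BCL9 pairs, against 5, 9 and 18. Its BCL9 densities were 24.1 and 16.6 in BCL9-KD cells, against 33.5, 69.9 and 23.2 in control cells. The value of 69.9 comes from 9 pairs in the shortest list. Within 5 kb of its TSSs lay 25 and 24 pSTAT3 pairs in BCL9-KD cells, against 8, 3 and 21 in control cells, and 9 and 26 BCL9 pairs, against 5, 7 and 18. The region 2.734 kb into the gene (chr1:32166819-32167026) was in all 10 libraries and not in CTCF, and held 30 and 23 pSTAT3 tags in BCL9-KD cells, against 11, 14 and 23 in control cells. COL12A1 had 34 and 42 pSTAT3 body pairs in BCL9-KD cells, against 14, 7 and 40 in control cells, and 2 and 25 BCL9 pairs, against 2, 3 and 8. Its shared intronic region at 9.882 kb (chr6:75905619-75906270) had pSTAT3 pairs of 18 and 9 tags, against 10, 11 and 22. BCL9 was there in 1 of 2 BCL9-KD and 2 of 3 control libraries, and CTCF gave a pair of 3 tags.

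**Figure D4:**
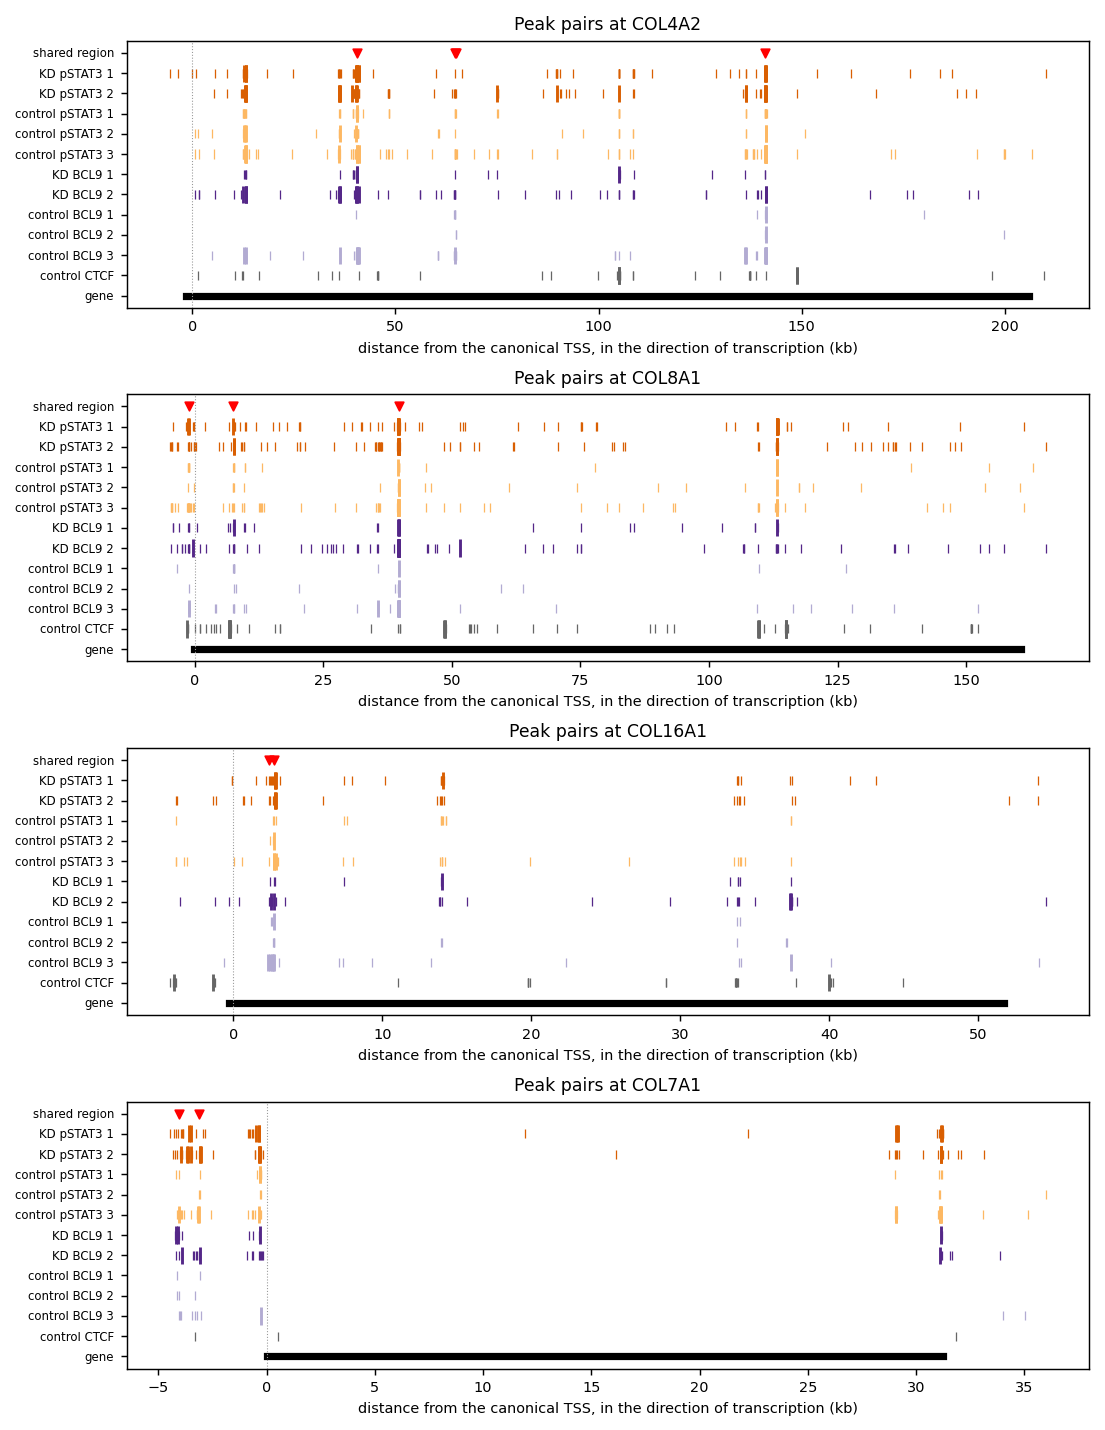
Positions of the peak pairs (ticks) in COL4A2, COL8A1, COL16A1 and COL7A1 in each of the 11 libraries, in kb from the canonical TSS in the direction of transcription. Taller ticks are pairs among the strongest 10% of their list, black bars are the gene bodies, and triangles mark the regions that control pSTAT3 and BCL9 libraries share, such as those at 40.565 and 141.077 kb in COL4A2.

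The fibrillar genes differed among themselves. COL1A1, the alpha 1 chain of type I collagen, is a short gene of 17.5 kb with 8 and 10 pSTAT3 body pairs in BCL9-KD cells, against 3, 0 and 8 in control cells, and 0 and 6 BCL9 pairs, against 1, 0 and 1. It had 2 pSTAT3 regions, in an intron at 0.701 kb and in a coding exon at 1.810 kb, and 0 of them were shared. CTCF gave 24 pairs there, the strongest at -392 bp from the TSS with 168 tags, and 0.175% of the CTCF list ranked above it. Its partner chain COL1A2 held 2 and 1 pSTAT3 body pairs in BCL9-KD cells, against 0, 0 and 1 in control cells, and 0 and 5 BCL9 pairs, against 0, 0 and 1. COL3A1, the type III chain, held 2 and 1 pSTAT3 pairs, against 0, 0 and 0, and CTCF gave 16. COL2A1, the chain of cartilage collagen, held 1 and 4 pSTAT3 pairs, against 1, 0 and 1, and 0 and 2 BCL9 pairs, against 2, 0 and 1. COL11A2 had 0 body pairs in all 10 libraries and 5 with CTCF. Some longer fibrillar genes held more pairs: COL24A1 had 27 and 34 pSTAT3 body pairs in BCL9-KD cells, against 4, 5 and 25 in control cells, COL5A2 26 and 28, against 5, 3 and 15, COL27A1 20 and 32, against 3, 4 and 25, and COL11A1 13 and 18, against 5, 3 and 8. COL5A1, also long, held 1 and 2, against 0, 2 and 2. The mean pSTAT3 densities of the first 4 lay between 1.46 and 3.599 in BCL9-KD cells and between 1.18 and 2.82 in control cells, below the 11.3 and 8.86 of COL1A1. COL6A1, a chain of the beaded filaments of type VI collagen, held 0 and 0 pSTAT3 pairs, against 0, 0 and 2, and 0 with CTCF. Several of these genes are near or at 0 in the short lists, where a count of 0 says only that no pair was listed.

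The comparison of BCL9-KD with control cells asks whether binding at these genes differs when BCL9 is reduced. Occupancy per cell and the share of cells with an occupied site cannot be told apart in such libraries. With pSTAT3, 28 of the 42 collagen genes averaged at least 5 body pairs and were tested with limma on log2(density + 0.5). None passed an adjusted p of 0.05, as none did among all 6835 genes tested (0% higher and 0% lower). At an unadjusted p under 0.05 there were 163 genes (2.38%) and 0 collagen genes, and with voom weights limma also called 0. The density of COL4A2 was 10.3 and 9.48 in BCL9-KD cells, against 21.9, 17.1 and 12.6 in control cells. The groups did not overlap, and COL4A2 was the only 1 of the 28 whose BCL9-KD libraries lay below all controls, which 8.41% of all tested genes did. The log2 difference was -0.73 ± 0.32 (SE; adjusted p = 0.92, limma), where the median of all genes was 0.13. Its density was lowest in the 3 longest lists, among them the third control library. At equal length its pairs numbered 4 and 5 in BCL9-KD cells, against 18, 16 and 10 in control cells, with a log2 difference of -1.62 ± 0.38 (adjusted p = 0.319, limma). How much of it goes with list length was not tested. COL13A1 and COL5A2 lay above all controls, 2 of 28, as 13.7% of all genes did. COL13A1 is a transmembrane collagen and COL5A2 a chain of type V collagen, which regulates fibril width; their densities were 4.00 and 4.00, against 2.07, 0.624 and 3.46, and 3.23 and 2.94, against 2.17, 1.57 and 2.07.

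Other densely covered genes overlapped between conditions. COL8A1 had pSTAT3 densities of 10.9 and 11.1 in BCL9-KD cells, against 10.5, 15.1 and 10.5 in control cells (log2 difference -0.10 ± 0.29, adjusted p = 0.95, limma). COL7A1 had 10.8 and 9.08, against 10.8, 6.49 and 7.70 (0.27 ± 0.31), COL18A1 3.99 and 4.30, against 10.1, 6.54 and 4.19 (-0.60 ± 0.40), and COL12A1 6.71 and 6.98, against 9.65, 5.82 and 8.77 (-0.20 ± 0.31). With the BCL9 antibody 12 collagen genes could be tested and none passed limma's adjusted p of 0.05, as none did among all 3560 genes (0%). At an unadjusted p under 0.05 there were 103 genes (2.89%) and 0 collagen genes, and 0 passed the adjusted threshold with voom weights. In simulated data with 8-fold changes this fit recovered 0 of 70 genes, so that the absence of calls cannot show equal binding. COL4A2 had BCL9 densities of 13.6 and 10.5 in BCL9-KD cells, against 18.5, 11.7 and 16.2 in control cells, and COL8A1 16.9 and 11.6, against 21.7, 27.7 and 12.1. Their log2 differences were -0.34 ± 0.43 and -0.45 ± 0.51, where the median of all genes was 0.39. The lowest of the 12 were COL16A1 at -0.91 and COL12A1 at -0.84, and the median of the 12 was 0.65. COL21A1, COL22A1 and COL25A1 lay above all controls, 3 of 12, as 16.0% of all genes did, and 0 of 12 lay below, as 8.31% did. COL22A1, a collagen of tissue junctions, had BCL9 densities of 1.61 and 2.74, against 0, 0 and 1.44 (log2 difference 1.73 ± 0.87, adjusted p = 0.793, limma). Both zeros are in the shortest lists. Without the third control BCL9 library 281 of 3444 genes tested passed the threshold, 277 of them higher in BCL9-KD cells and 4 lower. Of 16 collagen genes tested 2 passed, COL22A1 and COL27A1, both higher. This comparison then had only those short lists as controls.

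**Figure D5:**
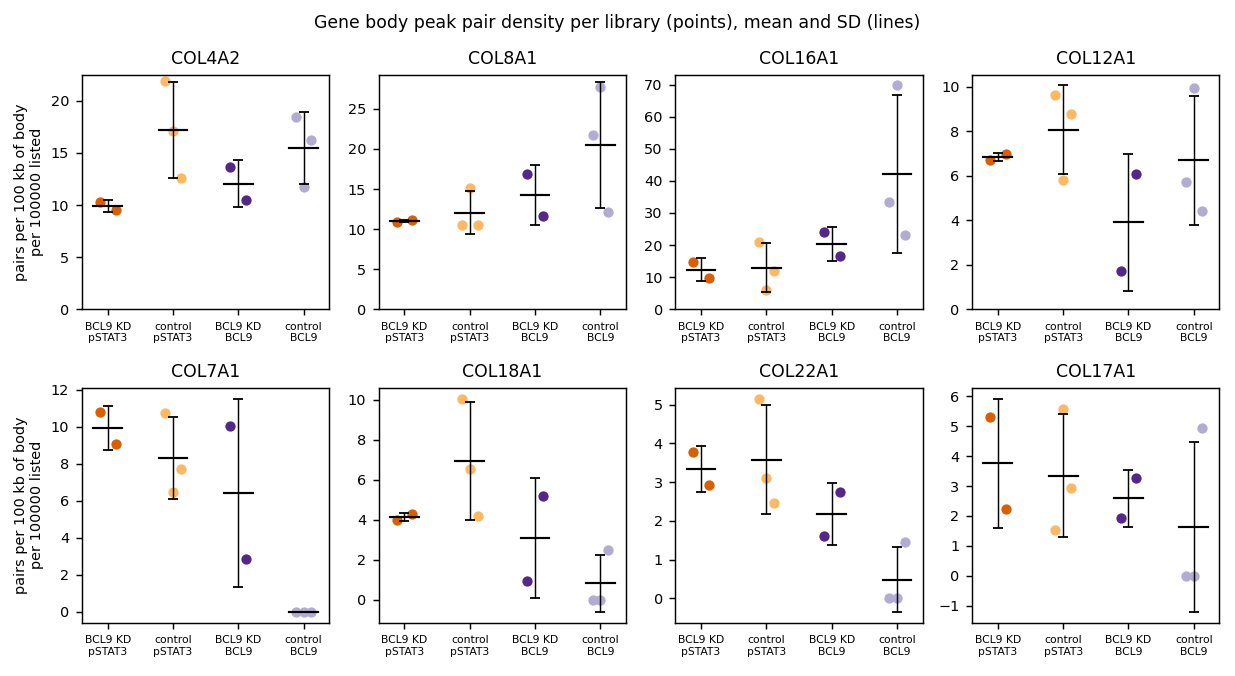
Gene body density (peak pairs per 100 kb per 100000 listed) of 8 collagen genes in the 2 BCL9-KD and 3 control libraries of each antibody, with points for libraries and lines for the mean and SD. COL4A2 is the only panel in which the BCL9-KD pSTAT3 points (10.3 and 9.48) lie below all control pSTAT3 points (12.6 and above).

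The antibodies were compared over 5 libraries each, with the condition as a term. Of 23 collagen genes tested, none passed limma's adjusted p of 0.05, as none did among all 5387 genes (0%), and 31 of all genes and 0 collagen genes did with voom weights. At an unadjusted p under 0.05 there were 840 genes (15.6%) and 8 collagen genes. Among these, COL18A1 was denser with pSTAT3 than with BCL9 by 2.05 ± 0.71 on the log2 scale (SE; adjusted p = 0.284, limma), COL22A1 by 1.61 ± 0.54, COL15A1 by 1.46 ± 0.55, COL27A1 by 1.44 ± 0.51, COL11A1 by 1.24 ± 0.45, COL24A1 by 1.08 ± 0.39 and COL5A2 by 1.06 ± 0.43, where the median of all genes was 0.46. COL16A1 went the other way, with a log2 difference of -1.30 ± 0.43 (adjusted p = 0.269, limma). The genes denser with pSTAT3 include several at 0 in the short BCL9 lists, so that list length moves with this difference and its part was not tested. Of the windows round pSTAT3 pairs in collagen bodies, 34.9% and 30.7% overlapped a BCL9 window of the same condition in BCL9-KD cells (all genes 32.9% and 30.6%), and 39.3%, 34.2% and 22.2% in control cells (all genes 45.1%, 30.6% and 22.8%). Of the BCL9 windows, 54.4% and 36.8% overlapped a pSTAT3 window in BCL9-KD cells (all genes 53.3% and 35.1%) and 63.3%, 80.0% and 48.7% in control cells (all genes 67.9%, 71.8% and 41.96%). The collagen genes thus lay on either side of all genes in this measure.

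Of the 87 collagen regions of control cells, 64 (73.6%) held pSTAT3 in both BCL9-KD libraries, against 74.2% of all regions, and 28 (32.2%) held BCL9 in both, against 34.7%. The share with BCL9 in control cells was 17.2% at collagen genes and 23.7% over all regions, and 20.7% and 17.5% overlapped a CTCF window. Of the 15 shared regions, 12 (80.0%) held pSTAT3 in both BCL9-KD libraries, against 94.2% of all shared regions, and 6 (40.0%) overlapped a CTCF window, against 23.2%.

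Genes whose products make, hold or lie beside collagen had pairs near the TSS in a larger share than the collagen genes, a difference that was not tested. Of 29 processing enzymes and chaperones, control BCL9 libraries had pairs near the TSS of 14 (48.3%, against 20.6% of all genes). Control pSTAT3 libraries had pairs near 20 (69.0%, against 52.5% of all genes). PLOD2, the lysyl hydroxylase of collagen telopeptides, had 35 and 39 pSTAT3 pairs near its TSSs in BCL9-KD cells, against 22, 17 and 32 in control cells. LOXL4, a lysyl oxidase, had 17 and 23, against 14, 5 and 24; P3H2, a prolyl hydroxylase acting on type IV collagen, 12 and 16, against 3, 2 and 17; and SPARC, a collagen-binding protein of the matrix, 12 and 13, against 7, 7 and 15. Of 12 laminins, the partners of type IV collagen, 8 had BCL9 in control cells (66.7%, against 20.6% of all genes). LAMB3 had 64 and 70 pSTAT3 pairs, against 41, 22 and 57, LAMA3 44 and 34, against 18, 14 and 22, LAMA2 19 and 26, against 14, 9 and 16, and LAMC1 18 and 24, against 6, 12 and 26. The LAMB3 and LAMA3 chains belong to laminin-332, the laminin of hemidesmosomes. Of 10 collagen receptors, 2 had BCL9 in control cells, a share close to the 20.6% of all genes. ITGA2, the alpha subunit of the main epithelial collagen integrin, had 25 and 23 pSTAT3 pairs, against 14, 10 and 24, and its beta subunit ITGB1 11 and 16, against 3, 1 and 11. DDR1, a receptor kinase for collagen, had 4 and 11, against 1, 1 and 4, and MRC2, an endocytic collagen receptor, 12 and 9, against 1, 1 and 4. As no gene passed the adjusted threshold in any of the 3 comparisons, none of these lists had a member that did.

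The lists hold no RNA, so the identity of the cells could be read only from where proteins bound. Markers of basal and epithelial cells had pSTAT3 near the TSS at 9 of 9 genes in BCL9-KD cells, against 71.8% of all genes. In control cells they had it at 8 of 9 (88.9%, against 52.5% of all genes). BCL9 was found at 8 of 9 in BCL9-KD cells (88.9%, against 41.7%) and at 5 of 9 in control cells (55.6%, against 20.6%). KRT8 had 32 and 46 pSTAT3 pairs, against 27, 5 and 50, ITGB4 30 and 23, against 7, 10 and 25, KRT17 34 and 31, against 15, 5 and 24, and KRT5 21 and 23, against 5, 7 and 17. Of 9 fibroblast markers, 5 had pSTAT3 in each condition (55.6%), against 71.8% of all genes in BCL9-KD cells and 52.5% in control cells. BCL9 was found at 3 in BCL9-KD cells (33.3%, against 41.7% of all genes) and at 1 in control cells (11.1%, against 20.6%). That gene was FAP, with 20 and 25 pSTAT3 pairs, against 17, 14 and 26, while THY1 had 6 and 4, against 2, 0 and 5, PDGFRB 1 and 3, against 1, 2 and 2, and TWIST1 0 and 4, against 4, 0 and 6. In control pSTAT3 libraries the median gene body density was 17.9 for the epithelial markers, 10.4 for the laminins, 6.15 for the processing enzymes, 5.45 for the receptors, 2.91 for the fibroblast markers and 2.26 for the collagen genes.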

How the data were processed

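ChIP-exo libraries of DCIS.COM cells were analysed from 11 lists of peak pairs, 1 per library. Per the labels, the authors used bcl2fastq and the build hg19, and the program tag of the deposited lists names a peak-pairing tool, cwpair. No aligner is given in these sources. The deposited signal, divided by a step particular to each library, gives whole tags within 0.01, and how the authors chose that step is not given either. It was used to rank pairs within a list, for a minimum of 9 tags, and for the tags printed for single pairs. Those tags were not scaled between libraries, and no test was run on them. The deposited borders of a pair lie at most 201 bp apart, and its midpoint was used.

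Genes, TSSs and sequences came from GRCh37 with GENCODE v44lift37. Gene body pairs per 100 kb per 100000 listed + 0.5 were taken as log2 and fitted in limma 3.58.1 (R 4.3.3; trend, robust, two-sided, Benjamini-Hochberg over all genes with a mean of at least 5 body pairs), by condition, or by antibody with condition as a term. The replicates are labelled as biological, and p-values measure the spread between them. In simulated data with 8-fold changes the fit recovered 22 of 69 genes for pSTAT3, 0 of 70 for BCL9 and 63 of 74 between antibodies. With 4-fold changes it recovered 0 of 82, 0 of 72 and 28 of 74. For each size 100 genes were changed, and only those that met the filter are counted. The simulated counts had the same dispersion for all genes and no shifts between libraries, so recovery could be lower in libraries that spread more. All collagen genes are counted; those with values are chains of hemidesmosome, basement membrane and fibrils, genes with both antibodies near the TSS, the 6 densest and 4 least dense, up to 4 genes of each other list, and genes whose conditions did not overlap, named after their values were seen. Members and lists were chosen with earlier results of these data known. Alternatives changed list length, tag minimum, TSS reach, transcripts, filter, centring, pseudocount, weights and libraries. Python 3.11.15, numpy 2.4.6, pandas 2.3.3, pysam 0.24.0 and matplotlib 3.10.9 were used.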

Additional observations from a re-analysis of the deposited data

How the results depend on the processing

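The counts of collagen genes with a pair near the TSS followed list length and reach. In BCL9-KD pSTAT3 libraries the 30 genes became 12 at 1 kb, 18 with the canonical transcript alone, 2 at equal length and 10 with at least 9 tags, and in control pSTAT3 libraries the 23 became 8 at 1 kb, 4 at equal length, 6 with at least 9 tags and 12 when 3 of 3 libraries were asked for. In BCL9-KD BCL9 libraries the 13 became 3, 8, 3 and 3 under the first 4 of these settings, and in control BCL9 libraries the 7 became 4 at 1 kb, 3 at equal length, 4 with at least 9 tags and 3 with 3 of 3 libraries. Leaving out 1 library gave 12 to 18 genes in control pSTAT3, 3 to 5 in control BCL9, 34 to 34 in BCL9-KD pSTAT3 and 14 to 33 in BCL9-KD BCL9 (33 without the first library), where 1 remaining library was then enough; the lowest control values were those without the third library. For BCL9-KD against control, 88 of 18893 genes passed without a filter for pSTAT3 and 1 of 628 at equal length for BCL9. Leaving out 1 control library gave 0 to 281 genes and 0 to 2 collagen genes for BCL9. The highest, 281 of 3444 genes and 2 of 16 collagen genes tested, came without the third control library (COL22A1 then 2.38, adjusted p = 0.0498 in limma). Between antibodies 201 of 626 genes tested passed at equal length, where 2 collagen genes were tested and 0 passed. With at least 9 tags 17 of 1485 passed, and after median centring 1 of 5387. Without a filter 10 of 18893 passed, and with voom weights 31 of 5387. Leaving out 1 library gave 0 to 22, with 22 without the second BCL9-KD BCL9 library and 1 without the third control BCL9 library. The causes were not tested. Signs turned for COL8A1 with pSTAT3 (0.12 at equal length; -0.19 to 0.070 with 1 library left out, 0.070 without the second control library), COL12A1 with pSTAT3 (0.070 with at least 9 tags) and COL4A2 with BCL9 (0.17 with at least 9 tags). Only some named genes were chosen for this count in each comparison, and 242 of their other log2 differences kept their sign and their side of the threshold. Among genes left out of it, the pSTAT3 sign turned in 4 of 11 settings for COL16A1 and for COL22A1. It turned in 4 of 10 for COL4A1, in 1 of 9 for COL1A1 and for COL17A1, and in 0 of 10 for COL5A2, COL13A1, COL24A1 and COL27A1. Between antibodies it turned in 5 of 17 for COL4A2.

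Neither the labels nor the data showed that replicate numbers pair the libraries: same-numbered libraries deviated together with correlations of 0.042 and -0.0066 for pSTAT3 and 0.104 and -0.088 for BCL9, and between antibodies with 0.042 and 0.042 in BCL9-KD cells and 0.040, 0.020 and 0.166 in control cells, where only the last is above 0.1. With the replicate number as a block 0 genes passed in each of the 3 comparisons. A fit without 1 of the BCL9-KD libraries assumes that the remaining one varies like the controls. Lists of 24728 to 493174 pairs limit the low genes most, and a 0 in a short list says only that no pair was listed.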
